A study of Mus musculus with 23 samples.

Results

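Livers that expressed the oncogenic Braf V600E allele were compared with livers that did not, in female mice with both copies of Trp53 and 1 copy of Icmt floxed. The comparison used 12 of the 15 mice of the study, 6 Ctrl and 6 ABpIF/+, chosen by their genotype label and the mouse name in the header of the count table, with 1 column of counts per mouse. Every mouse of both groups was Alb-Cre, Trp53 flx/flx and Icmt flx/+, and the ABpIF/+ mice also had a Braf CA allele, which Cre recombination turns into Braf V600E expressed from its own locus. The genotype labels write the Braf state of the ABpIF/+ mice as BRAF +/+ and that of Ctrl mice as BRAF wt, while the series design names BrafCA/+ for the former. Alb-Cre is driven by the albumin promoter, so recombination is directed to hepatocytes and can include the bile duct cells that descend from the same fetal progenitors, while endothelial, stellate and blood cells keep intact alleles. The strain label of 5 Ctrl mice names a single B6 line with the floxed alleles and Alb-Cre, and that of BG3 and of the 6 ABpIF/+ mice names a cross of that line with another B6 line that carries Trp53, Braf and Icmt alleles. The tissue was taken from areas free of visible tumors. Ages and hours of death were not among the labels used here.

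BRAF is a kinase that passes signals from RAS to MEK and then to ERK. The V600E form is active without RAS, and cells respond to strong ERK signalling by making phosphatases and adaptors that damp it. Trp53 encodes p53, which stops the cell cycle after damage or oncogenic stress, and Icmt encodes the enzyme that methylates the lipid-modified end of RAS and many other proteins. A mature hepatocyte secretes most plasma proteins and metabolises fat, sugar, amino acids, bile acids and foreign compounds, with different enzymes in periportal and pericentral cells.

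The gene counts of these 12 livers summed to 24742910 to 32262649 per mouse. The 10 most abundant genes held 19.3 to 22.5% of the counts in Ctrl and 26.6 to 32.6% in ABpIF/+ mice. Levels are given as CPM, counts per 1000000 after TMM scaling, which are not divided by gene length, so a level is compared between mice and not between genes. Of 27179 genes in the table, 2729 passed an adjusted p under 0.01 and a 2-fold change in edgeR's quasi-likelihood test, 1275 of them higher and 1454 lower in ABpIF/+ livers. That is 6.26% of the 20380 genes with a read called higher and 7.13% called lower, and these shares are the background for each gene list that follows. Among the called genes, 2316 had no overlap between the 6 values of each group, against 21.2% of all genes with a read. Spearman correlations across the 12147 genes at 1 CPM or more on average were 0.97 to 0.987 between ABpIF/+ mice and 0.888 to 0.918 between the groups. Among Ctrl mice, BG3 and malpa387 stood apart, with 0.963 to 0.969 to the other 4 Ctrl mice, which correlated at 0.983 to 0.992 with each other. BG3 is the only Ctrl mouse that carries the strain label of all 6 ABpIF/+ mice, so strain label and Braf genotype cannot be told apart in the other 5 Ctrl mice. Against BG3 alone, 2714 of the 2729 called genes differed in the same direction. BG3 is also 1 of the 6 Ctrl mice behind these calls. This agreement was therefore largely fixed in advance and does not show the effect of strain. Scaled by total counts alone, without TMM factors, the median log2 fold change over genes at 1 CPM or more moved to -0.16 and the split of calls to 978 higher and 1812 lower. In whole liver, fewer cells of a type and less RNA per cell cannot be told apart.

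**Figure D1:**
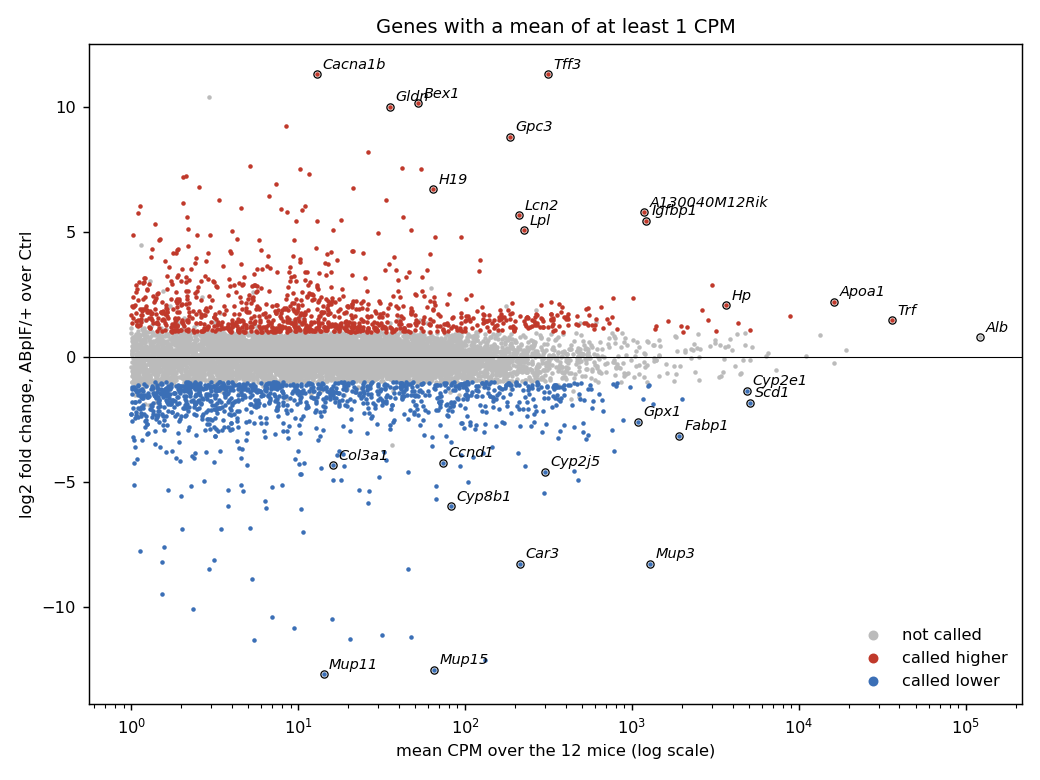
Log2 fold change of ABpIF/+ over Ctrl livers against the mean CPM over the 12 mice (log axis), for genes at 1 CPM or more on average, with called genes in color and some named genes circled. Called genes lie at every level, from Tff3 and Gpc3 at the top to the Mup genes at the bottom, and Alb, at the right edge, is not called.

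The engineered genes were read first, as a check of the genotypes. Braf (chromosome 6 of GRCm38, 39603231 to 39725658) had 14.1 to 26.5 CPM in the 6 Ctrl mice, median 23.1, against 24.0 to 29.2 CPM in the 6 ABpIF/+ mice, median 25.7. The groups overlapped and the difference did not pass (log2 fold change 0.24 ± 0.13 (SE), adjusted p = 0.194), and total Braf counts do not separate the V600E from the wild-type transcript. Against BG3 alone, the log2 fold change of Braf was 0.89, and without BG3 it was 0.14. Icmt, with 1 floxed copy in each group, had 27.8 to 34.7 CPM in the 6 Ctrl mice, median 30.7, against 27.8 to 37.4 CPM in the 6 ABpIF/+ mice, median 32.6, again with overlap (log2 fold change 0.09 ± 0.10 (SE), adjusted p = 0.678). Trp53 counts, which can come from cells without Cre and from what is left of the floxed transcript, were 4.29 to 6.74 CPM in the 6 Ctrl mice, median 5.29, against 12.3 to 16.8 CPM in the 6 ABpIF/+ mice, median 13.3. Every ABpIF/+ mouse was above every Ctrl mouse and Trp53 was called higher, by 2.59-fold (log2 fold change 1.37 ± 0.14 (SE), adjusted p = 1.58e-07).

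**Figure D2:**
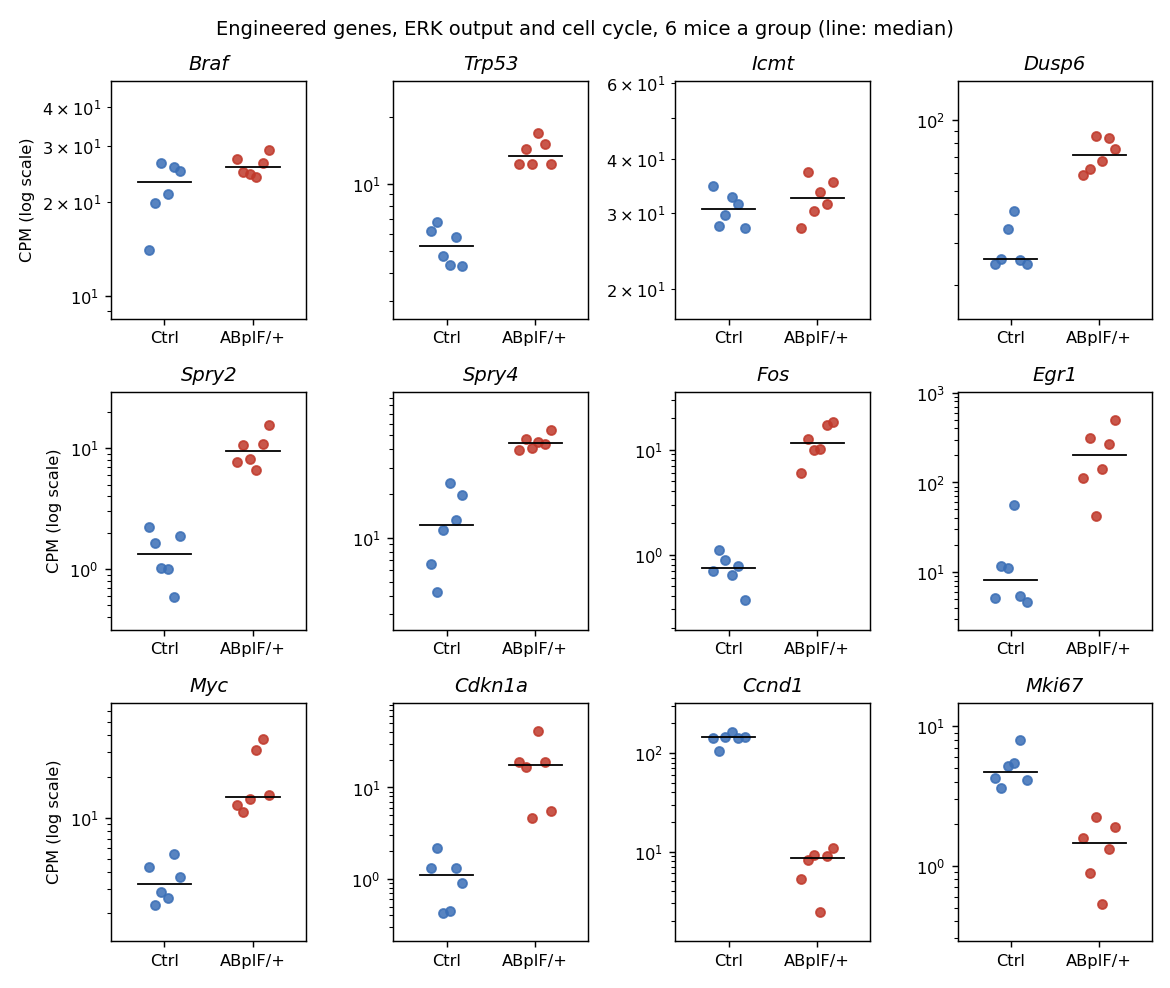
CPM (log axes) of 12 genes in each of the 6 Ctrl and 6 ABpIF/+ mice, with a line at the group median. Braf and Icmt overlap between groups, the ERK output genes lie higher in ABpIF/+ mice with overlap only for Egr1 among them, and Ccnd1 and Mki67 lie lower without overlap.

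Transcripts that ERK signalling is known to induce were higher in ABpIF/+ livers, while those of the kinases themselves were not. Of the 12 feedback inhibitors of the pathway that had a read, 8 rose and 0 fell, with a median log2 fold change of 1.84 over all 12, where the median of all genes with a read was 0.00. Dusp6, the phosphatase that inactivates ERK in the cytoplasm, had 24.5 to 41.1 CPM in the 6 Ctrl mice, median 25.7, against 58.5 to 86.3 CPM in the 6 ABpIF/+ mice, median 71.4 (log2 fold change 1.30 ± 0.15 (SE), adjusted p = 4.59e-07). Spry2, an adaptor that blocks receptor signalling to RAS, had 0.591 to 2.21 CPM in the 6 Ctrl mice, median 1.33, against 6.60 to 15.5 CPM in the 6 ABpIF/+ mice, median 9.46 (log2 fold change 2.85 ± 0.27 (SE), adjusted p = 6.73e-08). In both genes the lowest ABpIF/+ mouse was above the highest Ctrl mouse. Dusp4, a nuclear phosphatase of the same family, rose 9.32-fold, and Dusp5, which acts on nuclear ERK, rose 6.17-fold. Spry1 and Spry4 rose 3.72-fold and 3.43-fold.

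Among 18 transcription factors and early response genes that ERK induces, 11 rose and 0 fell, with a median log2 fold change of 2.12. Fos, a subunit of the AP-1 factor, had 0.373 to 1.12 CPM in the 6 Ctrl mice, median 0.737, against 5.94 to 18.2 CPM in the 6 ABpIF/+ mice, median 11.5 (log2 fold change 4.04 ± 0.27 (SE), adjusted p = 3.71e-10). Egr1, a zinc finger factor that serum and growth factors induce, had 4.62 to 56.8 CPM in the 6 Ctrl mice, median 8.25, against 42.8 to 501 CPM in the 6 ABpIF/+ mice, median 204. The groups overlapped, since Ctrl mouse malpa458, at 56.8 CPM, was above ABpIF/+ mouse BG40, and the call (log2 fold change 3.86 ± 0.82 (SE), adjusted p = 0.00311) was lost when BG3 and malpa387 were left out. Myc, which drives growth and ribosome synthesis, had 2.31 to 5.44 CPM in the 6 Ctrl mice, median 3.26, against 11.0 to 37.4 CPM in the 6 ABpIF/+ mice, median 14.2, without overlap (log2 fold change 2.51 ± 0.47 (SE), adjusted p = 0.00108). Etv4, an ETS factor, rose 11.5-fold, and Ier3, a survival factor, 7.12-fold. Etv5, a relative of Etv4, was not called at 3.30 to 6.25 CPM in the 6 Ctrl mice, median 3.98, against 5.06 to 8.56 CPM in the 6 ABpIF/+ mice, median 6.48. Without BG88, Etv1 was called lower (log2 fold change -1.68, adjusted p = 0.00938 by edgeR). Fosl1 had no read in any Ctrl mouse and at most 0.0387 CPM in an ABpIF/+ mouse.

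The 250 bases before the start site of Fos are shown because Fos is the immediate target by which ERK activity is usually read. They lie at chr12:85473640-85473889 (GRCm38.p6, + strand, from RefSeq). Capitals mark the 2 matches to TGACG, the core of the cyclic AMP response element (CRE), searched on both strands. The serum response element for which Fos is known was not searched in this window.
Fos: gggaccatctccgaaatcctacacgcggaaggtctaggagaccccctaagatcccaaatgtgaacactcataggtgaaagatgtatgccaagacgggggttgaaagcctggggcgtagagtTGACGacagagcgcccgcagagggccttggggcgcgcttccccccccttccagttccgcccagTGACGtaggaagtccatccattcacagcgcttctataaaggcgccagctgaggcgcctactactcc
TGACG was found in the same window of 17.9% of all 27025 promoters in the table. Among genes at 1 CPM or more on average it was in 25.7% of 728 promoters of genes called higher, 17.8% of 872 of genes called lower and 28.5% of those not called. The AP-1 motif TGANTCA was in 5.63% of promoters of genes called higher, 6.77% of those called lower and 4.02% of the rest. TGACG and TGANTCA share their first letters and cannot match at the same position. These shares are descriptions without a test, and a match does not show binding.

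Ligands of the EGF receptor family signal upstream of RAS. Of 13 ligands and receptors, 5 rose, all of them ligands, and 0 fell. Hbegf rose 4.06-fold, Btc 2.65-fold and Nrg4 2.74-fold. Areg had no read in any Ctrl mouse and 0.032 to 0.921 CPM in ABpIF/+ mice, and its ABpIF/+ mean was at least 2.90-fold higher than a floor of 3 counts per library. The remaining called ligand, Nrg1, went from 0.0843 to 1.70 CPM (group means, log2 fold change 4.29). Egfr, the receptor, was not called at 137 to 718 CPM in the 6 Ctrl mice, median 345, against 123 to 329.9 CPM in the 6 ABpIF/+ mice, median 158. Without BG40, Erbb4 was called lower (log2 fold change -3.28, adjusted p = 0.00158 by edgeR). None of 11 transcripts of RAS, RAF, MEK and ERK proteins was called by edgeR and 0 by DESeq2, 8 had an unadjusted p under 0.05, and their summed level was 506 to 590 CPM in Ctrl and 546 to 606 CPM in ABpIF/+ mice.

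Transcripts of cell division were lower in ABpIF/+ livers and those of several inhibitors of cyclin-dependent kinases were higher. Ccnd1, the D-type cyclin that starts the cycle and that ERK induces in many cell types, had 105 to 162 CPM in the 6 Ctrl mice, median 144, against 2.45 to 10.9 CPM in the 6 ABpIF/+ mice, median 8.67. Every ABpIF/+ mouse was below every Ctrl mouse, an 18.6-fold lower mean (log2 fold change -4.22 ± 0.29 (SE), adjusted p = 1.91e-08). Ccnd2, another D-type cyclin, fell from 10.5 to 3.00 CPM (group means, log2 fold change -1.80). The kinase inhibitor Cdkn1a, called p21, had 0.424 to 2.16 CPM in the 6 Ctrl mice, median 1.10, against 4.60 to 41.3 CPM in the 6 ABpIF/+ mice, median 17.7 (log2 fold change 4.02 ± 0.61 (SE), adjusted p = 0.000221). Cdkn2b and Cdkn1c, inhibitors of the same step, rose 7.57-fold and 3.83-fold. Cdkn2a, the inhibitor best known from oncogene-induced senescence, was not called and stayed low, at 0 to 0.369 CPM in the 6 Ctrl mice, median 0.0818, against 0.0806 to 0.566 CPM in the 6 ABpIF/+ mice, median 0.321. Of 31 genes of mitosis and DNA replication, 15 fell and 0 rose, with a median of -1.26, although only 19 had a mean of at least 1 CPM, and of these 6 fell, with a median of -0.61. Top2a, the topoisomerase of dividing cells, had 2.21 to 5.38 CPM in the 6 Ctrl mice, median 3.41, against 0.147 to 0.282 CPM in the 6 ABpIF/+ mice, median 0.216 (log2 fold change -4.02 ± 0.31 (SE), adjusted p = 2.16e-09). Mki67, the Ki-67 antigen, fell 3.62-fold and Kif11, a spindle motor, 5.52-fold. The list does not tell hepatocytes from other dividing cells, and markers of lymphocytes and macrophages, given below, were lower in the same livers. Their part in the result was not tested.

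With Trp53 floxed in each group, 3 of 20 known p53 targets rose and 0 fell. The called genes were Cdkn1a, the antiproliferative gene Btg2 and Sesn2. Btg2, which ERK also induces as an early gene, had 5.50 to 8.40 CPM in the 6 Ctrl mice, median 6.35, against 128 to 324 CPM in the 6 ABpIF/+ mice, median 141 (log2 fold change 4.79 ± 0.30 (SE), adjusted p = 6.67e-09). Sesn2, a stress sensor that restrains growth signalling, rose 2.22-fold with overlap between groups. Mdm2, the ubiquitin ligase of p53 and a target of it, was not called, at a log2 fold change of 0.47, although the groups did not overlap. Gdf15 was not called at 0.969 to 4.59 CPM in the 6 Ctrl mice, median 2.19, against 1.28 to 2.98 CPM in the 6 ABpIF/+ mice, median 1.52.

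The steepest rises, ranked by fold, were in genes that Ctrl livers hardly expressed. A ranking by fold favours genes with a low starting level, so this is partly an outcome of the ranking. Tff3, a secreted peptide of mucosal surfaces, had no read in 4 Ctrl mice, 0.155 CPM in malpa459 and 1.34 CPM in malpa387, against 477 to 961 CPM in ABpIF/+ mice (log2 fold change 11.31 ± 0.86 (SE), adjusted p = 4.54e-07). Cacna1b, a neuronal calcium channel subunit, had at most 0.0311 CPM in a Ctrl mouse and 16.7 to 36.1 CPM in ABpIF/+ mice. These genes went from near absence to levels well over the floor in every ABpIF/+ liver. Bex1, a small adaptor expressed in the nervous system, had 0 to 0.187 CPM in the 6 Ctrl mice, median 0.0903, against 70.4 to 160.5 CPM in the 6 ABpIF/+ mice, median 93.7 (log2 fold change 10.15 ± 0.58 (SE), adjusted p = 1.7e-08). Gldn, gliomedin of peripheral nerve, had 0 to 0.149 CPM in the 6 Ctrl mice, median 0.0627, against 43.6 to 79.2 CPM in the 6 ABpIF/+ mice, median 75.0 (log2 fold change 10.00 ± 0.35 (SE), adjusted p = 9.63e-13). Further genes of nerve or other tissues among the largest rises were Tceal5, at 0.112 CPM or less in Ctrl and 10.3 CPM or more in ABpIF/+ mice, Lrtm2, 296-fold, Scn8a, a sodium channel, 129.9-fold, and Fez1, an axonal transport adaptor, 132-fold. Cfap44, a cilium protein, and Klrb1b, a receptor of natural killer cells, rose 235-fold and 193-fold.

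Steroid and inositol enzymes also belonged to this group. Sult1e1, which sulfates estrogen, had 0 to 1.22 CPM in the 6 Ctrl mice, median 0.373, against 17.1 to 163 CPM in the 6 ABpIF/+ mice, median 69.2 (log2 fold change 7.57 ± 0.77 (SE), adjusted p = 8.2e-06). Akr1c18, which inactivates progesterone, had 0.123 to 0.895 CPM in the 6 Ctrl mice, median 0.597, against 81.6 to 120.4 CPM in the 6 ABpIF/+ mice, median 114 (log2 fold change 7.50 ± 0.25 (SE), adjusted p = 1.74e-14). It was among the 5 rises with the smallest p, with Neurl1a, Clmp, Cd63 and A130040M12Rik. Miox, the oxygenase of inositol breakdown in kidney, rose 172-fold. Neurl1a, an E3 ligase, rose 67.1-fold, Clmp, an adhesion molecule, 43.6-fold, and Cd63, a tetraspanin of late endosomes, 27.6-fold. A130040M12Rik, for which no role is given here, had 36.0 to 49.6 CPM in the 6 Ctrl mice, median 39.3, against 1855 to 3208 CPM in the 6 ABpIF/+ mice, median 2165.

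Fetal liver and liver tumors share a set of transcripts that the adult organ silences. Of 20 such oncofetal and progenitor genes, 9 rose and 1 fell, with a median of 2.61. Gpc3, a cell surface proteoglycan used as a marker of hepatocellular carcinoma, had 0.287 to 1.25 CPM in the 6 Ctrl mice, median 0.873, against 266 to 444 CPM in the 6 ABpIF/+ mice, median 407 (log2 fold change 8.80 ± 0.56 (SE), adjusted p = 5.07e-08). H19, an imprinted noncoding RNA of fetal liver, had 0.492 to 2.24 CPM in the 6 Ctrl mice, median 1.21, against 55.3 to 203 CPM in the 6 ABpIF/+ mice, median 124 (log2 fold change 6.71 ± 0.44 (SE), adjusted p = 5.52e-08). Afp, the fetal counterpart of albumin, had 2.79 to 4.59 CPM in the 6 Ctrl mice, median 4.08, against 7.39 to 42.6 CPM in the 6 ABpIF/+ mice, median 28.0 (log2 fold change 2.81 ± 0.46 (SE), adjusted p = 0.000434). All 3 were higher in every ABpIF/+ mouse than in any Ctrl mouse, but Afp and H19 remained minor transcripts beside Alb. Igf2, the fetal growth factor next to H19, did not pass at 0.447 to 1.31 CPM in the 6 Ctrl mice, median 0.882, against 1.94 to 9.09 CPM in the 6 ABpIF/+ mice, median 4.19 (log2 fold change 2.38 ± 0.63 (SE), adjusted p = 0.0123). The gene that fell was Igf2bp2, which binds the RNA of Igf2, with a log2 fold change of -1.16. The call of Igf2bp2 was lost without malpa459, malpa462, BG30, BG55 or BG88 (log2 fold change -1.15 to -1.003, adjusted p = 0.01 to 0.0196 by edgeR). Without BG175, Plagl1 was called lower (log2 fold change -1.86, adjusted p = 0.00634 by edgeR). The summed level of the list was 27.7 to 51.3 CPM in Ctrl and 1274 to 1886 CPM in ABpIF/+ mice. Tff3, described above, is a member that rose, with a median of 596 CPM in ABpIF/+ mice. Tff3 and Gpc3 together held much of this sum.

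Hepatocytes can take on features of bile duct cells, and the factors that hold their identity can be lost. Of 20 biliary and ductular genes, 5 rose and 2 fell. Sox9, the transcription factor of duct and progenitor cells, had 1.97 to 3.85 CPM in the 6 Ctrl mice, median 2.99, against 11.8 to 25.1 CPM in the 6 ABpIF/+ mice, median 17.2 (log2 fold change 2.61 ± 0.23 (SE), adjusted p = 8.84e-08). Krt18, a keratin of hepatocytes and ducts, and Anxa4 rose 2.34-fold and 2.07-fold. Ggt1, a peptidase of the cell surface, rose with a log2 fold change of 3.16. Krt19, the keratin that marks mature ducts, fell instead, with 0.802 to 2.05 CPM in the 6 Ctrl mice, median 1.34, against 0.171 to 0.89 CPM in the 6 ABpIF/+ mice, median 0.643 (log2 fold change -1.21 ± 0.34 (SE), adjusted p = 0.00912), and Muc1, a mucin, fell with a log2 fold change of -2.37. Epcam, Krt7 and Spp1 were not called. The call of Krt19 was lost without BG3, malpa387, malpa454, malpa459, malpa462, BG30, BG31, BG55, BG88 or BG175 (log2 fold change -1.30 to -1.01, adjusted p = 0.0102 to 0.0301 by edgeR). The call of Anxa4 was lost without BG175 (log2 fold change 0.99, adjusted p = 3.96e-07 by edgeR). Of 23 hepatocyte transcription factors, 0 rose and 3 fell. Hnf4a, the central regulator of the hepatocyte, was not called at 495 to 672 CPM in the 6 Ctrl mice, median 597, against 694 to 1108 CPM in the 6 ABpIF/+ mice, median 818, higher without overlap but under 2-fold. Onecut2 fell 3.79-fold and Tbx3, a pericentral factor, 2.87-fold, and the remaining one was Nr0b2, the bile acid-induced repressor, which fell 2.16-fold with overlap between groups. The call of Nr0b2 was lost without BG3 or malpa458 (log2 fold change -0.961 to -0.955, adjusted p = 0.00431 to 0.00596 by edgeR). Without malpa387, Foxa3 was called higher (log2 fold change 1.17, adjusted p = 0.000271 by edgeR).

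YAP and Notch are pathways that push hepatocytes towards the duct fate. Of 16 YAP targets and partners, 3 rose and 2 fell. Tead4, the DNA-binding partner of YAP, Amot and Wwtr1, which encodes the YAP relative TAZ, rose 8.33-fold, 4.79-fold and 2.54-fold. Axl, a receptor kinase, and Amotl1 fell, with log2 fold changes of -1.02 and -1.09. The classical targets Ccn1 and Ccn2 were not called, with medians of 10.1 CPM in Ctrl and 9.77 CPM in ABpIF/+ mice for Ccn1 and of 5.73 CPM in Ctrl and 15.7 CPM in ABpIF/+ mice for Ccn2. In the Notch list 2 of 15 rose and 1 fell. Hes1, a Notch target and repressor, rose 3.43-fold, Jag2, a ligand, rose with a log2 fold change of 2.36, and Notch3, a receptor of vascular wall cells, fell 3.38-fold with overlap. The call of Amotl1 was lost without BG40 (log2 fold change -0.998, adjusted p = 7.89e-05 by edgeR). The call of Axl was lost without BG3, malpa387, malpa454, malpa458, malpa459, malpa462, BG31, BG40 or BG55 (log2 fold change -1.06 to -0.89, adjusted p = 0.0114 to 0.0196 by edgeR). The call of Notch3 was lost without malpa462 or BG55 (log2 fold change -1.63 to -1.62, adjusted p = 0.0106 to 0.0116 by edgeR).

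**Figure D3:**
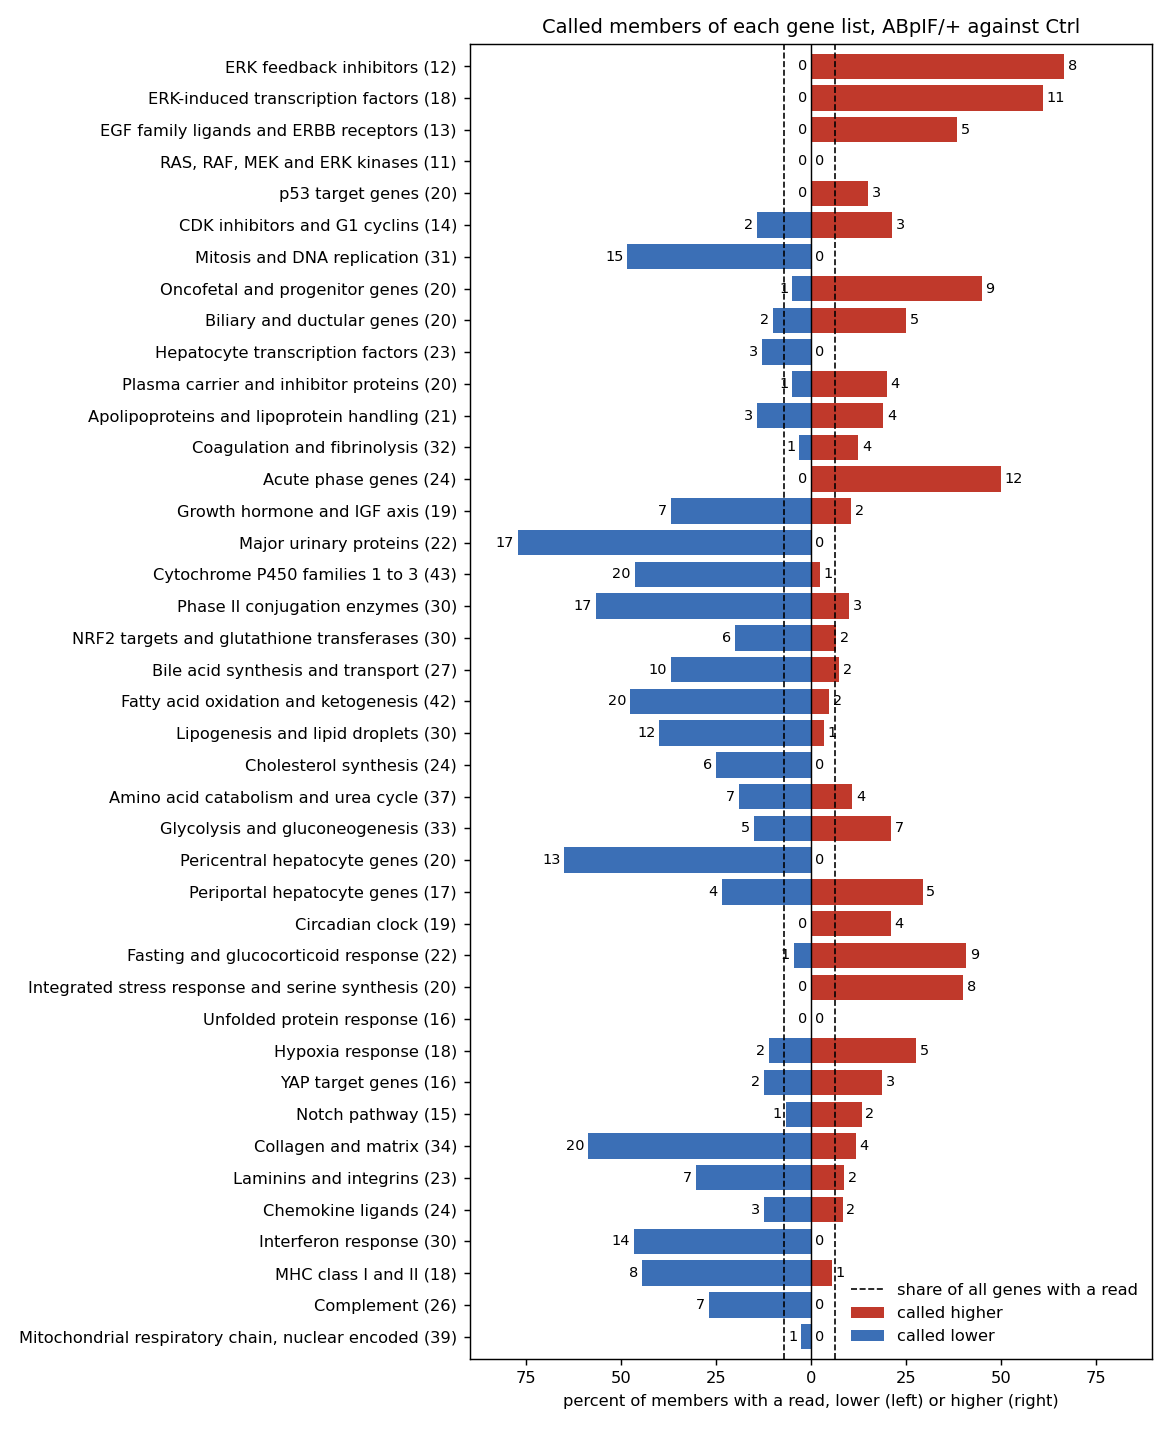
Share of the members with a read (number in brackets) that were called higher, to the right, or lower, to the left, in each gene list, with the number of genes at each bar. Dashed lines mark 6.26% higher and 7.13% lower, the shares over all genes with a read.

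Several plasma protein transcripts were higher in ABpIF/+ livers, but few of the fixed list given below passed a 2-fold change. Trf, transferrin, which carries iron, had 16996 to 22502 CPM in the 6 Ctrl mice, median 18830.3, against 41852 to 63498 CPM in the 6 ABpIF/+ mice, median 52688 (log2 fold change 1.47 ± 0.18 (SE), adjusted p = 1.19e-06). Apoa1, the main protein of high-density lipoprotein, had 4019 to 7800.2 CPM in the 6 Ctrl mice, median 5879.9, against 21736 to 34754 CPM in the 6 ABpIF/+ mice, median 26289.9 (log2 fold change 2.21 ± 0.20 (SE), adjusted p = 1.36e-08). No ABpIF/+ mouse overlapped a Ctrl mouse in either gene. Both were named for their gain in CPM, among the 10 called genes with the largest, with Hp, Kng1, Cp, Igfbp1, the translation factor Eef1a1 and 3 Serpina1 genes. Serpina1a, Serpina1b and Serpina1e, copies of the gene for antitrypsin that share most of their sequence, rose 2.81-fold, 3.09-fold and 7.44-fold, and the split of reads between them is uncertain. The call of Serpina1e was lost without BG3, malpa454, malpa458, malpa462, BG55, BG88 or BG175 (log2 fold change 2.69 to 2.98, adjusted p = 0.0104 to 0.0159 by edgeR). Alb was higher in every ABpIF/+ mouse, with 76790 to 104893 CPM in the 6 Ctrl mice, median 88419, against 128868 to 186385 CPM in the 6 ABpIF/+ mice, median 150150, but under the 2-fold threshold (log2 fold change 0.79 ± 0.18 (SE), adjusted p = 0.00168).

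Of 20 plasma carriers and inhibitors, 4 rose and 1 fell, and their summed level was 141458 to 187235 CPM in Ctrl and 248674 to 346156 CPM in ABpIF/+ mice. The member that fell was A1bg, a plasma glycoprotein, with 770 to 2229 CPM in the 6 Ctrl mice, median 1437, against 26.3 to 199 CPM in the 6 ABpIF/+ mice, median 98.8 (log2 fold change -3.76 ± 0.48 (SE), adjusted p = 4.42e-05). In 21 apolipoproteins and lipoprotein handling genes, 4 rose and 3 fell. Apoc2, the activator of lipoprotein lipase, and Apoa4 rose 4.38-fold and 2.85-fold, and Apom rose with a log2 fold change of 1.05. Hepatic lipase, Lipc, fell 6.63-fold and Pltp, the phospholipid transfer protein, 7.32-fold, while Apon fell with a log2 fold change of -1.58. The call of Apom was lost without BG88 (log2 fold change 0.994, adjusted p = 2.52e-06 by edgeR). Apob, the structural protein of very low-density lipoprotein, was not called at 3108 to 6765 CPM in the 6 Ctrl mice, median 5772, against 4324 to 5586 CPM in the 6 ABpIF/+ mice, median 4753. Clotting is largely a liver product as well. Of 32 coagulation and fibrinolysis genes, 4 rose, among them Kng1, Kng2 and Serpinf2, and 1 fell, Serpine2 with a log2 fold change of -1.70. The call of Serpine2 was lost without BG3, malpa387, malpa459, BG30, BG31, BG40, BG88 or BG175 (log2 fold change -1.68 to -1.53, adjusted p = 0.0116 to 0.0151 by edgeR). Without BG30 or BG175, Plau was called lower (log2 fold change -1.505 to -1.46, adjusted p = 0.00653 to 0.0088 by edgeR). Kng1, kininogen, had 2202 to 2709.7 CPM in the 6 Ctrl mice, median 2376, against 5701 to 6959 CPM in the 6 ABpIF/+ mice, median 6193 (log2 fold change 1.38 ± 0.14 (SE), adjusted p = 1.1e-07). Serpinf2, the inhibitor of plasmin, rose 2.70-fold. Fgb, the fibrinogen beta chain, was not called at 2169 to 2861 CPM in the 6 Ctrl mice, median 2284, against 2908 to 6149 CPM in the 6 ABpIF/+ mice, median 3388 (log2 fold change 0.67 ± 0.20 (SE), adjusted p = 0.0166).

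Acute phase genes, which inflammation turns up in hepatocytes, rose in part. Of 24 members, 12 rose and 0 fell, with a median of 0.97. Lcn2, an iron-scavenging protein, had 5.84 to 10.0 CPM in the 6 Ctrl mice, median 8.36, against 121 to 891 CPM in the 6 ABpIF/+ mice, median 277 (log2 fold change 5.68 ± 0.65 (SE), adjusted p = 1.98e-05). Hp, haptoglobin, had 1193 to 1709 CPM in the 6 Ctrl mice, median 1326, against 3814 to 9104 CPM in the 6 ABpIF/+ mice, median 5312 (log2 fold change 2.08 ± 0.26 (SE), adjusted p = 2.35e-06). Serpina3n, Cp, Cd14 and the chemokine Cxcl1 rose 5.10-fold, 3.71-fold, 5.06-fold and 8.10-fold. Saa1, the most inducible member in mouse liver, went another way, with 20.0 to 33.4 CPM in the 6 Ctrl mice, median 25.8, against 2.05 to 202 CPM in the 6 ABpIF/+ mice, median 2.70. It lay below every Ctrl mouse in 5 ABpIF/+ mice and far above them in the sixth, BG40, and was not called (log2 fold change 0.53 ± 1.27 SE). BG40 also had the highest Fgb, Serpina3n, Cxcl1, Cd14 and Timp1 of its group, and without it 12 members of the list rose and 2 fell, Steap4 and Saa3. Of 26 complement genes, 7 fell and 0 rose. C9, of the membrane attack complex, had 144 to 204 CPM in the 6 Ctrl mice, median 182, against 5.55 to 18.5 CPM in the 6 ABpIF/+ mice, median 12.6 (log2 fold change -3.89 ± 0.34 (SE), adjusted p = 5.98e-07). C6 and C8g of the same complex fell 2.70-fold and 3.47-fold, and Mbl1, a mannose-binding lectin, 5.15-fold. C3, the central component, was not called at 7908 to 13148 CPM in the 6 Ctrl mice, median 11571, against 9384 to 16403 CPM in the 6 ABpIF/+ mice, median 10282.

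Growth hormone acts on the liver through its receptor and STAT factors, and the Mup and Cyp genes of the adult liver depend on it. Of 19 genes of this axis, 7 fell and 2 rose, with a median of -0.95. The receptor gene Ghr had 411 to 580.4 CPM in the 6 Ctrl mice, median 544, against 161 to 227 CPM in the 6 ABpIF/+ mice, median 177 (log2 fold change -1.50 ± 0.17 (SE), adjusted p = 4.09e-07). The call of Esr1 was lost without malpa454, malpa458, malpa459, malpa462, BG30, BG31, BG40, BG55 or BG88 (log2 fold change -1.97 to -1.64, adjusted p = 0.011 to 0.0167 by edgeR). The call of Cish was lost without BG3, malpa387, malpa454, malpa462, BG31, BG55, BG88 or BG175 (log2 fold change 1.49 to 1.74, adjusted p = 0.0103 to 0.02 by edgeR). Igf1, the growth factor that growth hormone induces, fell 2.16-fold and Igfals, the subunit that keeps it in blood, 6.22-fold, each without overlap. Esr1, the estrogen receptor, was called lower with 12.9 to 92.3 CPM in the 6 Ctrl mice, median 57.4, against 10.1 to 19.9 CPM in the 6 ABpIF/+ mice, median 11.8, but against BG3 alone its log2 fold change was 0.05. Igfbp1, a binding protein that fasting and low insulin induce, rose most, with 22.1 to 103 CPM in the 6 Ctrl mice, median 44.2, against 1495 to 3691 CPM in the 6 ABpIF/+ mice, median 2153 (log2 fold change 5.45 ± 0.53 (SE), adjusted p = 2.69e-06). The other gene that rose was Cish, a feedback inhibitor of growth hormone signalling, 3.08-fold, and Socs2, of the same family, was not called at 10.7 to 61.4 CPM in the 6 Ctrl mice, median 30.7, against 56.2 to 127 CPM in the 6 ABpIF/+ mice, median 86.0.

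The 250 bases before the start of Igfbp1 are shown as the promoter of the largest rise in this axis. They lie at chr11:7197537-7197786 (GRCm38.p6, + strand, from RefSeq), and capitals mark the match to CAAAACAA, a core of the insulin response sequence that FOXO factors bind, searched on both strands.
Igfbp1: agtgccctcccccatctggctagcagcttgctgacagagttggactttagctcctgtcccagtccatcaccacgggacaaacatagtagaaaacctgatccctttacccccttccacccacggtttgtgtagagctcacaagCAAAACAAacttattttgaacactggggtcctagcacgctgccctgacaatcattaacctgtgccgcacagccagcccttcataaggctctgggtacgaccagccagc
CAAAACAA was present in 2.47% of promoters of genes called higher, 2.41% of those called lower, 1.41% of those not called and 2.22% of all promoters in the table.

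Major urinary proteins are small carriers of pheromones that mouse liver secretes in large amounts. Of 22 Mup genes, 17 fell and 0 rose, with a median of -8.46. Their summed level was 2107 to 4653 CPM in Ctrl and 7.54 to 48.6 CPM in ABpIF/+ mice, without overlap. Mup3, the member with the most reads, had 1889 to 4143 CPM in the 6 Ctrl mice, median 2197, against 2.23 to 24.8 CPM in the 6 ABpIF/+ mice, median 4.23 (log2 fold change -8.26 ± 0.88 (SE), adjusted p = 1.16e-05). Mup11 had no read in any ABpIF/+ mouse and was at least 235-fold lower, with 7.18 to 41.6 CPM in Ctrl mice. Mup15 had 13.1 to 299 CPM in Ctrl mice and at most 0.0754 CPM in an ABpIF/+ mouse. Mup genes are near-identical copies, so values of single members are uncertain, while the sum does not depend on how counted reads were split among them. Whether reads that match several copies were counted at all is not known here, and Mup3 made up most of the sum in Ctrl mice. Mup20, called darcin, is male-biased and was not called at 19.9 to 35.4 CPM in the 6 Ctrl mice, median 29.2, against 2.57 to 21.4 CPM in the 6 ABpIF/+ mice, median 8.04. Outside the family, the prostaglandin synthase Ptgds had 7.22 to 24.6 CPM in Ctrl mice and at most 0.032 CPM in an ABpIF/+ mouse, and the pseudogene Serpina4-ps1, with 1.86 to 361 CPM in Ctrl mice, was at 0.151 CPM or less in ABpIF/+ mice.

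Enzymes that handle foreign compounds, steroids and bile acids fell as groups. Of 43 cytochrome P450 genes of families 1 to 3, 20 fell and 1 rose, with a median of -1.35 and a summed level of 22806 to 30014 CPM in Ctrl and 12974 to 17072 CPM in ABpIF/+ mice. Cyp2j5, an epoxygenase of arachidonic acid, had 523 to 623 CPM in the 6 Ctrl mice, median 584, against 13.9 to 32.9 CPM in the 6 ABpIF/+ mice, median 23.5 (log2 fold change -4.57 ± 0.20 (SE), adjusted p = 2.51e-13). Cyp1a2, the caffeine-metabolising enzyme of pericentral cells, had 555 to 722 CPM in the 6 Ctrl mice, median 663, against 54.9 to 86.4 CPM in the 6 ABpIF/+ mice, median 63.6 (log2 fold change -3.25 ± 0.17 (SE), adjusted p = 7.55e-12). Both were among the 5 falls with the smallest p, with Srd5a1, Me1 and Slc22a30. Without malpa459, Cyp2a4 was called higher (log2 fold change 1.07, adjusted p = 0.00635 by edgeR). Cyp2f2, Cyp3a11 and Cyp2e1 fell 30.0-fold, 3.22-fold and 2.54-fold, and the female-biased copies Cyp3a41a and Cyp3a41b 51.1-fold and 36.8-fold, with reads that may be shared between them. Srd5a1, the steroid reductase that makes dihydrotestosterone, had 41.8 to 78.3 CPM in the 6 Ctrl mice, median 67.5, against 2.42 to 4.35 CPM in the 6 ABpIF/+ mice, median 4.02 (log2 fold change -4.10 ± 0.17 (SE), adjusted p = 2.06e-13), and Slc22a30, an organic anion transporter, fell 10.5-fold.

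Conjugation followed the same direction. Of 30 phase II enzymes, 17 fell and 3 rose, with a median of -1.30. Ugt2b37 and Ugt3a1, which transfer sugars, fell 129-fold and 56.0-fold, and Sult2a8, a sulfotransferase of bile acids, had 416 to 714 CPM in the 6 Ctrl mice, median 594, against 6.21 to 21.7 CPM in the 6 ABpIF/+ mice, median 14.0 (log2 fold change -5.41 ± 0.76 (SE), adjusted p = 0.000136). Ugdh, which makes the sugar donor, fell 4.00-fold. Sult1e1, described above, was an exception. Of 30 NRF2 targets and glutathione transferases, 6 fell and 2 rose. Gpx1, the peroxidase that uses glutathione, had 1383 to 2526 CPM in the 6 Ctrl mice, median 1748, against 259 to 379 CPM in the 6 ABpIF/+ mice, median 294 (log2 fold change -2.59 ± 0.18 (SE), adjusted p = 4.65e-10). Mgst1 fell 3.20-fold and Gsta2 7.10-fold with overlap, while Gstp2 rose 4.59-fold from a low level. Nqo1 and Hmox1, the targets by which NRF2 activity is usually read, were not called, with medians of 11.5 CPM in Ctrl and 15.2 CPM in ABpIF/+ mice for Nqo1 and of 15.5 CPM in Ctrl and 28.9 CPM in ABpIF/+ mice for Hmox1. Without BG3, or without malpa387, 3 members of this list fell, and the same number fell without both. The call of Gsta2 was lost without BG3, malpa387, malpa454, malpa458, malpa462, BG30, BG31, BG40, BG88 or BG175 (log2 fold change -2.90 to -2.51, adjusted p = 0.0128 to 0.0193 by edgeR). Cat, catalase, fell 3.68-fold and Rgn, regucalcin, 5.72-fold.

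In bile acid synthesis and transport, 10 of 27 genes fell and 2 rose, with a median of -0.81. Cyp7a1, the rate-limiting enzyme of bile acid synthesis, had 99.3 to 561 CPM in the 6 Ctrl mice, median 259.7, against 25.9 to 82.6 CPM in the 6 ABpIF/+ mice, median 37.9 (log2 fold change -2.63 ± 0.57 (SE), adjusted p = 0.00344). Cyp8b1, which makes cholic acid, had 94.5 to 251 CPM in the 6 Ctrl mice, median 151, against 1.13 to 4.51 CPM in the 6 ABpIF/+ mice, median 2.13 (log2 fold change -5.96 ± 0.55 (SE), adjusted p = 2.54e-06). Neither gene overlapped between groups. The call of Cyp7a1 was lost without BG88 or BG175 (log2 fold change -2.60 to -2.57, adjusted p = 0.01 to 0.0103 by edgeR). The genes that rose were Cyp39a1, an oxysterol hydroxylase, and Abcc4, an exporter to the blood, with log2 fold changes of 2.00 and 1.66. The call of Abcc4 was lost without BG3, malpa387, malpa454, malpa459, malpa462, BG30, BG31, BG40 or BG55 (log2 fold change 1.45 to 1.74, adjusted p = 0.0102 to 0.0172 by edgeR). The exporter Abcb11 fell 7.03-fold, and the uptake carriers Slco1b2 and Slco1a1 8.57-fold and 35.5-fold, while Slc10a1, the main uptake carrier, was not called at 517 to 827 CPM in the 6 Ctrl mice, median 812, against 565 to 708 CPM in the 6 ABpIF/+ mice, median 604. Nr1h4, the bile acid receptor FXR, was not called either, with medians of 129 CPM in Ctrl and 121 CPM in ABpIF/+ mice.

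The promoter of Cyp8b1 is shown as that of the steepest fall in this list. Its 250 bases before the start lie at chr9:121916306-121916555 (GRCm38.p6, - strand, from RefSeq), printed in the direction of transcription, and capitals mark the match to TATAAA, the TATA box motif, searched on both strands.
Cyp8b1: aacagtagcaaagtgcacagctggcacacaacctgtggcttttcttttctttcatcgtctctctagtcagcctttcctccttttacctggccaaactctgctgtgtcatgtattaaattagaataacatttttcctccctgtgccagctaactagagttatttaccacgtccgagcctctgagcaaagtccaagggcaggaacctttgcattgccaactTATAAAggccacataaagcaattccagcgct
TATAAA was present before 10.8% of genes called lower, 6.73% of genes called higher, 6.09% of those not called and 13.0% of all promoters in the table. The hexamer AGGTCA, which nuclear receptors bind, was present before 12.8%, 10.9% and 11.0% of the genes of these 3 groups.

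Both the burning and the making of fat were lower at the transcript level. Of 42 genes of fatty acid oxidation and ketogenesis, 20 fell and 2 rose, with a median of -1.09 and a summed level of 15863 to 23195 CPM in Ctrl and 6521 to 8093 CPM in ABpIF/+ mice. Fabp1, the fatty acid carrier of the hepatocyte, had 2718 to 5614 CPM in the 6 Ctrl mice, median 3074, against 283 to 569 CPM in the 6 ABpIF/+ mice, median 386 (log2 fold change -3.15 ± 0.33 (SE), adjusted p = 1.34e-06). Acaa1b, a peroxisomal thiolase, fell 9.78-fold, and Bdh1, of ketone body synthesis, 4.65-fold. Cyp4a31, an omega hydroxylase of fatty acids, rose 6.28-fold. Cpt1a, which admits fatty acids to mitochondria, was not called at 330.3 to 502 CPM in the 6 Ctrl mice, median 456, against 459.9 to 605 CPM in the 6 ABpIF/+ mice, median 496, and neither was Ppara, the receptor that controls the list, at 173 to 464 CPM in the 6 Ctrl mice, median 376, against 196 to 249 CPM in the 6 ABpIF/+ mice, median 223.

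Of 30 lipogenesis and lipid droplet genes, 12 fell and 1 rose, with a median of -0.66. Scd1, the desaturase that makes oleate and the largest loss in CPM of any called gene, had 5388 to 10751 CPM in the 6 Ctrl mice, median 7556, against 1789 to 3321 CPM in the 6 ABpIF/+ mice, median 2122 (log2 fold change -1.83 ± 0.20 (SE), adjusted p = 3.75e-07). Car3, an abundant carbonic anhydrase of fat-storing cells, had 258 to 604 CPM in the 6 Ctrl mice, median 429.6, against 0.242 to 3.20 CPM in the 6 ABpIF/+ mice, median 0.894 (log2 fold change -8.25 ± 0.89 (SE), adjusted p = 1.32e-05). Me1, the malic enzyme that supplies NADPH, had 204 to 277 CPM in the 6 Ctrl mice, median 243, against 11.8 to 19.3 CPM in the 6 ABpIF/+ mice, median 17.5 (log2 fold change -3.85 ± 0.18 (SE), adjusted p = 5.11e-13). In each of the 3 the groups were apart. Fasn, the fatty acid synthase, fell 3.33-fold with overlap, Thrsp 6.60-fold with overlap, Plin2, a coat protein of lipid droplets, 4.16-fold and Elovl3, an elongase, 36.8-fold. The only gene of the list that rose was Lpl, lipoprotein lipase, which adult hepatocytes hardly make, with 8.82 to 19.1 CPM in the 6 Ctrl mice, median 12.3, against 389 to 464 CPM in the 6 ABpIF/+ mice, median 452 (log2 fold change 5.07 ± 0.24 (SE), adjusted p = 8.97e-12). Without malpa459 or malpa462, Lpin1 was called higher (log2 fold change 1.51 to 1.65, adjusted p = 0.00153 to 0.00914 by edgeR). Srebf1, the regulator of the pathway, was not called at 174 to 628 CPM in the 6 Ctrl mice, median 511, against 247 to 428 CPM in the 6 ABpIF/+ mice, median 281. In cholesterol synthesis 6 of 24 genes fell and 0 rose. Hmgcs1, Idi1, Sc5d and Tm7sf2 fell 3.31-fold, 4.09-fold, 2.40-fold and 2.95-fold, while Sqle, a regulated step, was not called and overlapped.

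**Figure D4:**
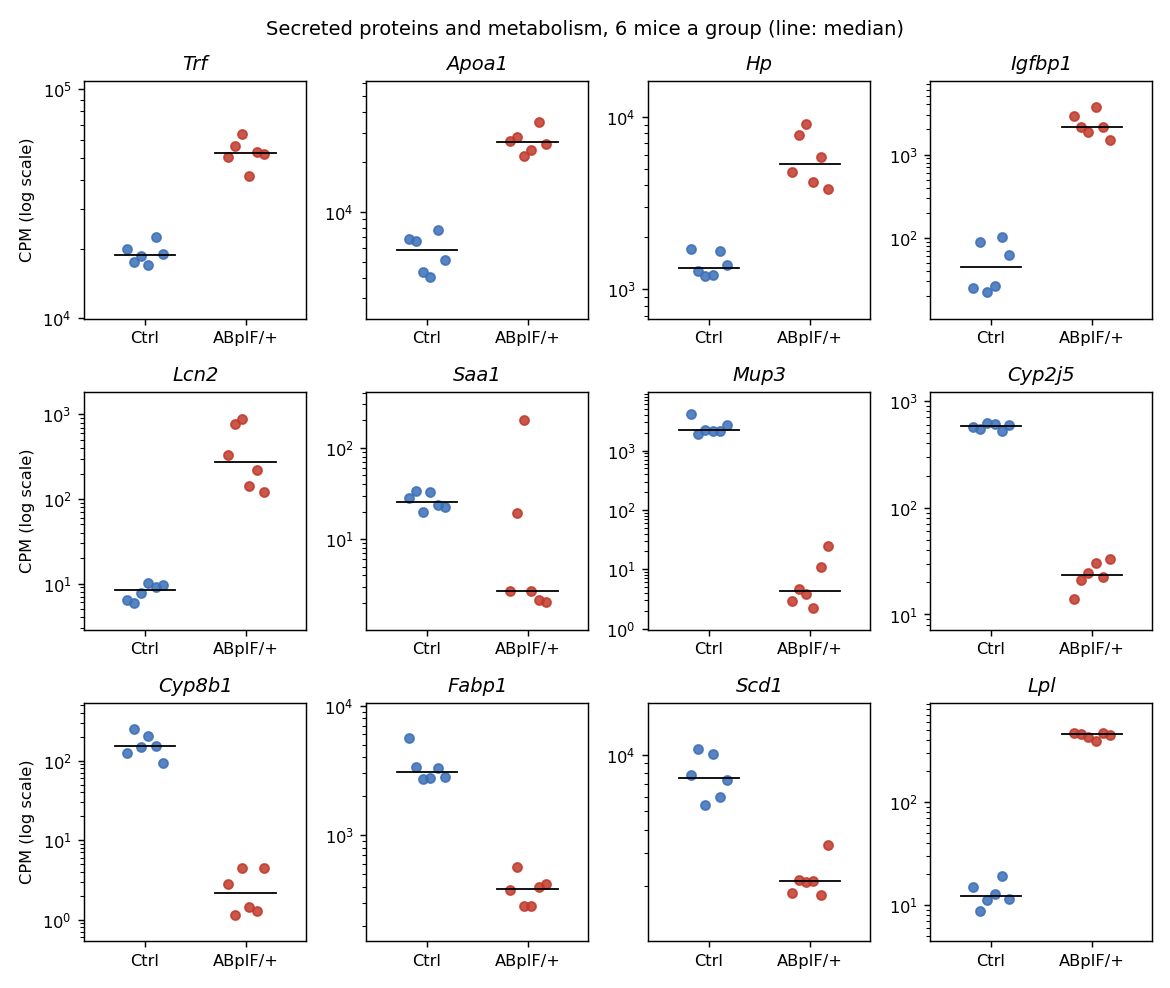
CPM (log axes) of 12 genes of secretion and metabolism in each of the 6 Ctrl and 6 ABpIF/+ mice, with a line at the group median. Trf, Apoa1, Hp, Igfbp1, Lcn2 and Lpl lie higher and Mup3, Cyp2j5, Cyp8b1, Fabp1 and Scd1 lower in every ABpIF/+ mouse, and Saa1 is split, with BG40 alone at 202 CPM.

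Hepatocytes divide their work along the lobule, and genes of the pericentral end were lower while periportal genes were mixed. Of 20 pericentral genes, 13 fell and 0 rose, with a median of -1.45, and their summed level was 10009 to 13844 CPM in Ctrl and 3109.6 to 6305 CPM in ABpIF/+ mice. Glul, glutamine synthetase of the last cells before the central vein, had 861 to 1233 CPM in the 6 Ctrl mice, median 1106, against 185 to 307 CPM in the 6 ABpIF/+ mice, median 241 (log2 fold change -2.15 ± 0.28 (SE), adjusted p = 1.29e-05). Rhbg, an ammonium transporter, and Oat fell 9.13-fold and 3.26-fold, and the call of Oat was lost when BG3 and malpa387 were left out. Axin2 and Lgr5, targets of the Wnt signal that sets up this zone, fell 2.58-fold and 6.81-fold. Of 17 periportal genes, 5 rose and 4 fell, with a median of 0.09. Arg1 and Sds, of urea formation and serine breakdown, rose 2.34-fold and, with overlap, 2.90-fold, and Hsd17b13, a lipid droplet enzyme, 5.09-fold, whereas Cyp2f2 fell as given above. In the list of amino acid catabolism and the urea cycle, 4 of 37 rose and 7 fell. Cps1 and Ass1, which start the urea cycle, were not called. Cps1 had 2617 to 5279.8 CPM in the 6 Ctrl mice, median 4788, against 1765 to 3683 CPM in the 6 ABpIF/+ mice, median 2812. Ass1 had 1867 to 3054 CPM in the 6 Ctrl mice, median 2543, against 1716 to 3477 CPM in the 6 ABpIF/+ mice, median 2343. Etnppl fell 9.05-fold and Tat, tyrosine aminotransferase, rose 2.08-fold. The call of Sds was lost without malpa387, malpa454, malpa458, malpa459, BG31, BG55 or BG88 (log2 fold change 1.38 to 1.56, adjusted p = 0.0108 to 0.0131 by edgeR). The call of Tat was lost without malpa387, malpa454, malpa458, malpa459, BG55, BG88 or BG175 (log2 fold change 0.799 to 1.08, adjusted p = 0.0111 to 0.0179 by edgeR). Without BG3 and malpa387, 2 members of this list rose, and 2 rose without malpa387, malpa454, malpa459, BG55 or BG88.

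Sugar metabolism changed in both directions. Of 33 glycolysis and gluconeogenesis genes, 7 rose and 5 fell. Pfkp, the platelet form of phosphofructokinase, had 1.98 to 4.09 CPM in the 6 Ctrl mice, median 2.61, against 13.4 to 24.9 CPM in the 6 ABpIF/+ mice, median 21.1 (log2 fold change 2.87 ± 0.19 (SE), adjusted p = 1.54e-10). Ldhb and Aldoa rose 6.16-fold and 2.12-fold, and the hexokinases Hk2 and Hk3 fell 3.04-fold and 3.48-fold. Pck1, the gluconeogenic enzyme, and G6pc1, which releases glucose, were not called and overlapped between groups. Among 22 genes that fasting or glucocorticoids induce, 9 rose and 1 fell. They included Igfbp1 and Cdkn1a, Fkbp5, which had 28.1 to 118 CPM in the 6 Ctrl mice, median 68.9, against 251 to 444 CPM in the 6 ABpIF/+ mice, median 286 (log2 fold change 2.16 ± 0.24 (SE), adjusted p = 2.03e-06), Zbtb16, 4.48-fold with overlap, and Mt1, a metallothionein, 4.03-fold. Without BG55, Cyp4a14 was called lower (log2 fold change -1.82, adjusted p = 0.00934 by edgeR). Tsc22d3, another glucocorticoid target, and Angptl4, a fasting target of PPARA, were not called, with medians of 127 CPM in Ctrl and 84.2 CPM in ABpIF/+ mice for Tsc22d3 and of 105 CPM in Ctrl and 60.6 CPM in ABpIF/+ mice for Angptl4.

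Of 20 genes of the integrated stress response and serine synthesis, 8 rose and 0 fell, with a median of 0.99. Aldh1l2 lost its call without BG3, malpa387, malpa454, malpa458, BG30, BG31 or BG40 (adjusted p = 0.0155 to 0.0209 by edgeR). Slc7a1 lost its call without BG3, malpa387, malpa454, malpa458, malpa462, BG30, BG31, BG40 or BG175 (adjusted p = 0.014 to 0.0271 by edgeR). Neither was called when both BG3 and malpa387 were left out. Asns, asparagine synthetase, had 0.041 to 1.51 CPM in the 6 Ctrl mice, median 0.658, against 22.1 to 50.1 CPM in the 6 ABpIF/+ mice, median 33.5 (log2 fold change 5.46 ± 0.55 (SE), adjusted p = 6.02e-06). Phgdh and Psat1, the first steps of serine synthesis, rose 15.5-fold and 12.5-fold, and Trib3, a target of ATF factors, 4.78-fold. Of 16 genes of the unfolded protein response none was called by edgeR and 0 by DESeq2, while 7 had an unadjusted p under 0.05, with Hspa5, the chaperone BiP, at 434 to 693 CPM in the 6 Ctrl mice, median 516, against 514 to 1533 CPM in the 6 ABpIF/+ mice, median 892. Of 39 nuclear genes of the respiratory chain, 1 was called, Sdha of complex II, which fell 2.15-fold. In the hypoxia list 5 of 18 rose and 2 fell. Epas1, which encodes a hypoxia-inducible factor, and Bnip3 rose 3.03-fold and 2.87-fold, Egln3, a sensor that the factor induces, fell 2.58-fold, and Vegfa was not called at 132 to 217 CPM in the 6 Ctrl mice, median 164, against 131 to 181 CPM in the 6 ABpIF/+ mice, median 159.9. In 7 of 12 fits without 1 mouse, those without BG3, malpa387, malpa454, malpa459, malpa462, BG55 or BG175, 3 members rose. Slc2a1, also in the glycolysis list, lost its call in these 7 fits and without BG88 (log2 fold change 0.887 to 1.06, adjusted p = 0.00496 to 0.0168 by edgeR). Epo lost its call in all 12 fits but that without BG88 (adjusted p = 0.0125 to 0.0211 by edgeR). None of the 12 fits kept all 5 rises.

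Clock genes swing over the day, so hours of death matter for them. Of 19 clock genes 4 rose, among them Per1, Cry1 and Cry2, and 0 fell. Per1 had 22.7 to 57.2 CPM in the 6 Ctrl mice, median 43.6, against 107 to 160 CPM in the 6 ABpIF/+ mice, median 126 (log2 fold change 1.61 ± 0.25 (SE), adjusted p = 0.000107). Dbp and Bmal1, which peak at opposite hours, overlapped between groups and were not called. A Ctrl mouse, malpa387, was apart, with Bmal1 at 16.4 CPM against a Ctrl median of 1.16 and Dbp at 3.69 against 99.4. The call of Cry1 was lost without malpa459 or BG55 (log2 fold change 0.955 to 0.964, adjusted p = 0.00248 to 0.00251 by edgeR). The call of Cry2 was lost without malpa387, malpa459 or BG55 (log2 fold change 0.861 to 0.99, adjusted p = 9.27e-05 to 0.0043 by edgeR). Without BG40, Nr1d1 was called lower (log2 fold change -1.10, adjusted p = 0.00544 by edgeR). The part of the hour of death in other results was not tested.

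Many transcripts of matrix genes, which cells between the hepatocytes make for the most part, were lower in ABpIF/+ livers. Of 34 collagen and matrix genes, 20 fell and 4 rose, with a median of -1.54. Their summed level was not lower, at 2895 to 4204 CPM in Ctrl and 3933 to 6280 CPM in ABpIF/+ mice, with overlap. Col1a1, of the main fibrillar collagen of scars, had 7.37 to 14.4 CPM in the 6 Ctrl mice, median 8.67, against 0.155 to 0.991 CPM in the 6 ABpIF/+ mice, median 0.366 (log2 fold change -4.30 ± 0.37 (SE), adjusted p = 1.77e-07). Col3a1, its partner, had 28.1 to 36.3 CPM in the 6 Ctrl mice, median 29.9, against 0.806 to 2.78 CPM in the 6 ABpIF/+ mice, median 1.28 (log2 fold change -4.32 ± 0.27 (SE), adjusted p = 3.69e-09). Lum, a proteoglycan that shapes the fibrils, fell 10.1-fold. The genes that rose were Col4a3 and Col4a4, chains of a basement membrane collagen of kidney and lung, and the proteases Mmp12 and Mmp14. Col4a3 had 0.246 to 1.67 CPM in the 6 Ctrl mice, median 1.21, against 17.4 to 34.2 CPM in the 6 ABpIF/+ mice, median 22.9 (log2 fold change 4.37 ± 0.32 (SE), adjusted p = 5.45e-08), and the others had log2 fold changes of 3.08, 3.18 and 1.29. The call of Mmp12 was lost without BG3, malpa387, malpa458, malpa459, malpa462, BG30, BG88 or BG175 (log2 fold change 2.98 to 3.33, adjusted p = 0.01 to 0.0256 by edgeR). Timp1, the protease inhibitor that marks fibrosis, was not called and was at 1.62 CPM in BG40 against a group median of 0.0889. Among 23 laminins and integrins, 7 fell and 2 rose. Lama1, Lama2 and Lamb1 fell 6.98-fold, 5.24-fold and 4.67-fold, and Lama5 rose 6.63-fold. The other gene that rose was Itga2, an integrin subunit, with a log2 fold change of 2.96. The call of Itga2 was lost without BG3, malpa387, malpa454, malpa459, malpa462, BG30, BG31, BG40 or BG55 (log2 fold change 2.60 to 3.22, adjusted p = 0.0107 to 0.024 by edgeR).

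Markers of stellate cells and fibroblasts were lower too. This list shares members with the matrix genes above, among them Col1a1, Col3a1 and Lum, so it is not a separate result for those. Of 12 markers, 10 fell, and their summed level was 345 to 551 CPM in Ctrl and 92.5 to 186 CPM in ABpIF/+ mice. Hgf, the growth factor that stellate cells give to hepatocytes, fell 7.98-fold. Of 12 macrophage markers 6 fell, with a sum of 407 to 577 CPM in Ctrl and 173 to 311 CPM in ABpIF/+ mice. Clec4f and Timd4 of resident Kupffer cells fell 2.35-fold and 3.62-fold, Adgre1, the F4/80 antigen, 3.78-fold, and Csf1r, the growth factor receptor, 2.45-fold. Of 12 lymphocyte markers 4 fell, with a sum of 9.04 to 15.1 CPM in Ctrl and 4.60 to 6.82 CPM in ABpIF/+ mice. Without malpa459 2 of them fell, and without BG3 and malpa387 1. Of 10 endothelial markers 2 fell, Clec4g and Cdh5, with sums that overlapped at 244 to 347 CPM in Ctrl and 137 to 291 CPM in ABpIF/+ mice. Without BG30 4 of these fell, and without BG3 and malpa387 only Cdh5. Of 10 neutrophil markers 1 rose and 0 fell, and they summed to 2.47 to 4.42 CPM in Ctrl and 3.19 to 11.5 CPM in ABpIF/+ mice. Without malpa387, Camp was called higher (log2 fold change 3.89, adjusted p = 0.00282 by edgeR). Without BG30, Mpo was called higher (log2 fold change 4.51, adjusted p = 0.00941 by edgeR). Of 6 platelet markers 2 rose and 0 fell, with overlapping sums of 3.21 to 6.81 CPM in Ctrl and 6.27 to 12.2 CPM in ABpIF/+ mice. The call of Gp9 was lost without BG40 (log2 fold change 2.63, adjusted p = 0.0125 by edgeR). Of 6 red blood cell markers with a read 1 rose and 0 fell, with overlapping sums of 32.7 to 151 CPM in Ctrl and 73.6 to 239 CPM in ABpIF/+ mice. The call of Hba-a1 was lost without malpa387, malpa454, malpa458, BG31, BG40 or BG175 (log2 fold change 1.46 to 1.67, adjusted p = 0.0109 to 0.0137 by edgeR). Reads of this globin gene may be split with a near-identical copy. Of 8 cholangiocyte markers 2 rose and 1 fell, Krt19 as given above, with overlapping sums of 50.4 to 88.7 CPM in Ctrl and 55.4 to 177 CPM in ABpIF/+ mice. Markers of hepatocytes summed to 126321 to 165395 CPM in Ctrl and 223834 to 301954 CPM in ABpIF/+ mice, and 2 of 11 rose while 1 fell, so the labelled tissue showed its defining markers in every mouse. Alb, Trf and Apoa1, the secreted protein genes given above, made up most of this sum, so it does not measure the share of hepatocytes. Markers of exocrine pancreas summed to at most 28.8 CPM and those of adipocytes to at most 4.35 CPM. Their part in the matrix result was not tested.

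**Figure D5:**
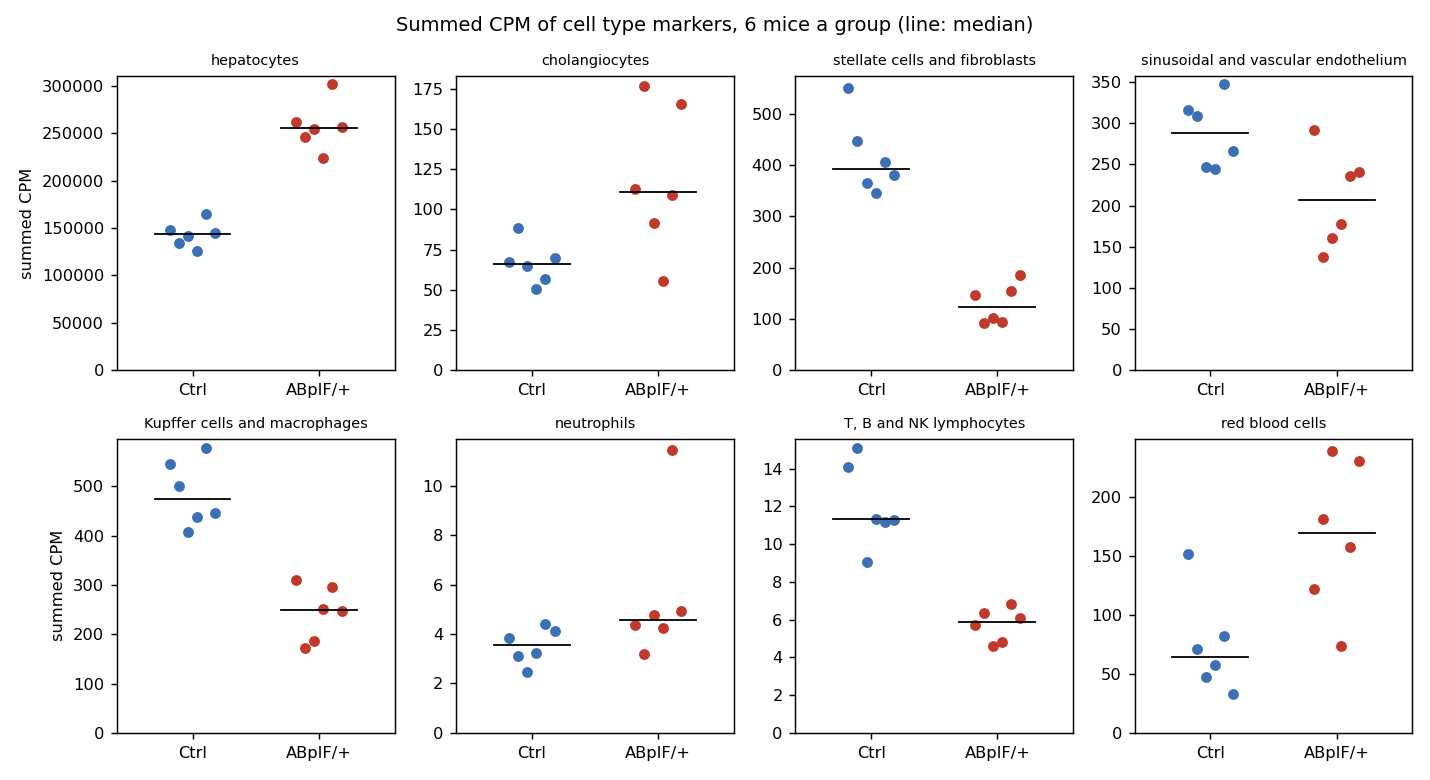
Summed CPM of 8 lists of cell type markers in each of the 6 Ctrl and 6 ABpIF/+ mice, on linear axes from 0, with a line at the group median. Sums for stellate cells, macrophages and lymphocytes are lower and those for hepatocytes, mostly Alb, higher in every ABpIF/+ mouse, while the other 4 lists overlap.

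Immune response genes were lower too. Of 30 interferon response genes, 14 fell and 0 rose, with a median of -0.86. Oas2 and Oas3, sensors of double-stranded RNA, fell 7.34-fold and 5.94-fold, Oasl2 4.47-fold and Gbp3, a guanylate-binding protein, 3.93-fold. Ifit1 and Isg15 had medians of 17.9 CPM in Ctrl and 7.35 CPM in ABpIF/+ mice and of 9.59 CPM in Ctrl and 4.52 CPM in ABpIF/+ mice, and both calls were lost when BG3 and malpa387 were left out. The call of Ifit1 was lost without BG3, malpa387, malpa458, malpa462, BG31 or BG55 (log2 fold change -1.24 to -1.13, adjusted p = 0.0111 to 0.0121 by edgeR). Of 18 genes of antigen presentation, 8 fell and 1 rose. H2-Ab1, a chain of MHC class II, had 18.2 to 44.5 CPM in the 6 Ctrl mice, median 32.5, against 5.22 to 9.96 CPM in the 6 ABpIF/+ mice, median 8.89 (log2 fold change -1.97 ± 0.34 (SE), adjusted p = 0.000538). Without BG3 and malpa387, 4 members fell and 2 rose, and Cd74, H2-Aa and H2-Eb1 were no longer called. H2-Aa, H2-Eb1 and Cd74 of the same class fell 3.70-fold, 3.50-fold and 2.93-fold, while the called member that rose was the class I gene H2-Q4, with a log2 fold change of 1.19. Among 24 chemokine ligands 2 rose, Cxcl1 and Ccl9, and 3 fell, Cxcl9 and Cxcl10, induced by interferon, 6.82-fold and 3.43-fold, and Cxcl12 with a log2 fold change of -1.06. The call of Cxcl12 was lost without malpa454 or malpa458 (log2 fold change -0.998 to -0.993, adjusted p = 4.3e-05 to 4.45e-05 by edgeR).

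Some of these genes were set beside the 3 ABpIF/F livers, which have the same Braf allele and both Icmt copies floxed. Genes higher in ABpIF/+ than in ABpIF/F livers were 2.35% of those with a read and genes lower were 7.32%. Col3a1 was at 39.1 ± 15.5 CPM (SD, n = 3) in ABpIF/F livers and lower in ABpIF/+ livers (log2 difference -4.66, adjusted p = 1.25e-07). Oasl2 was at 25.7 ± 23.6 CPM (SD, n = 3) and also lower in ABpIF/+ livers (log2 difference -4.03, adjusted p = 1.15e-05). Ccnd1 was at 37.9 ± 8.66 CPM (SD, n = 3), above ABpIF/+ mice (log2 difference -2.33, adjusted p = 7.45e-05). Bex1, at 12.1 ± 10.3 CPM (SD, n = 3), and Bnip3, at 124 ± 27.9 CPM (SD, n = 3), were instead higher in ABpIF/+ livers (log2 difference 3.11, adjusted p = 0.000537 for Bex1 and log2 difference 2.28, adjusted p = 1.37e-07 for Bnip3). Dusp6, at 61.5 ± 11.6 CPM (SD, n = 3), and Apoa1, at 18411 ± 3265 CPM (SD, n = 3), did not pass (log2 difference 0.23, adjusted p = 0.477 and log2 difference 0.54, adjusted p = 0.123). Both comparisons share the 6 ABpIF/+ mice, and Icmt was 15.8 ± 0.711 CPM (SD, n = 3) in the ABpIF/F mice.

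Because the strain labels differ between the groups, genes next to Braf were counted apart. Within 10 Mb of Braf 20 of 187 genes with a read were called, or 10.7%, against 13.4% of all genes with a read. The same window held 14.4% around Trp53, 8.06% around Icmt and 26.0% around Alb, which lies among other liver genes.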

How the data were processed

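Livers of 15 female mice were profiled by stranded polyA RNA sequencing, and the 12 mice of Ctrl and ABpIF/+ were compared. The deposited values are raw counts per gene, which the authors made with HISAT2 (written 2.21 in the submitters' processing notes), mm10 and featureCounts 2.0.8 without scaling. The annotation and the strand setting of the counting are not given in the sources used here, so overlapping and antisense genes cannot be told apart. Of 23 sample entries, 8 mice were named by 2 and 7 by 1, and each mouse was counted once by its column. The columns of the authors' own comparisons, which hold fold changes, F statistics and p-values, were not used, and 5 columns of a second table that match no sample were left out. Mice are separate animals.

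Counts were tested with edgeR 4.0.16 (limma 3.58.1, R 4.3.3) by the quasi-likelihood method in its legacy form, with TMM scaling, robust dispersions, a fit of all 3 groups and no gene filter, and p-values were adjusted by Benjamini-Hochberg over 27179 genes. Calls needed an adjusted p under 0.01 together with an absolute log2 fold change of 1 or more. Standard errors are the absolute log2 fold change divided by the square root of F and are approximate. Folds are ratios of mean CPM, and floors of 3 counts cover counting error only. The steps were tested on simulated data. Totals per mouse were similar in the groups, and no sample was dropped or imputed.

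Gene lists, members and rules were chosen with earlier results of these data known. Genes were named by these rules: the engineered genes and Apoa1, Afp and Fgb, per direction the 15 largest fold changes among non-overlapping called genes with 5 CPM in a group, the 10 largest differences in CPM, the 5 smallest p, and per list its lead genes and up to 4 called genes with 1 CPM. Members printed by log2 fold change alone to complete a list were chosen after their values were seen. Some genes that the rules select are not reported here. Promoters are from RefSeq on GRCm38.p6, the assembly that mm10 names, and motifs were searched on both strands. Alternatives were DESeq2 1.42.0, other scalings, filters and thresholds, BG3 as the only Ctrl mouse and leaving out each mouse.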

Additional observations from a re-analysis of the deposited data

Results flagged for a closer look

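Sets of 6 values were taken for genes given above, 1 set per gene and group. In 46 of 436 sets, a mouse stood apart from the other 5. Its gap to the nearest exceeded Dixon's critical share of the range at the 95% level. For continuous values with a normal spread, chance gives this in about 1 in 20 sets. That rate does not hold for sets of CPM in which most mice had no read, where any read can set a mouse apart. Fosl1 in BG40 (0.0387 CPM), Ptgds in BG175 (0.032 CPM) and Cacna1b in malpa459 (0.0311 CPM) were under the floor of 3 counts. Their listing below as high does not show a raised level. The sets are also not independent, since genes move together within a mouse.

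ABpIF/+ mouse BG40 was high in C3 (16403 CPM, group median 10282), Cd14 (29.2 CPM, group median 11.4), Cxcl1 (42.9 CPM, group median 18.9), Fgb (6149 CPM, group median 3388), Fosl1 (0.0387 CPM, group median 0), Igf2 (9.09 CPM, group median 4.19), Lgr5 (3.40 CPM, group median 0.751), Miox (29.9 CPM, group median 21.8), Saa1 (202 CPM, group median 2.70), Serpina3n (3174 CPM, group median 1469) and Timp1 (1.62 CPM, group median 0.0889). The same mouse was low in Clmp (19.2 CPM, group median 25.9).

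Ctrl mouse malpa387 was high in Bmal1 (16.4 CPM, group median 1.16), Cxcl10 (6.10 CPM, group median 3.07), Tceal5 (0.112 CPM, group median 0) and Tff3 (1.34 CPM, group median 0). The same mouse was low in Ccnd1 (105 CPM, group median 144), Dbp (3.69 CPM, group median 99.4), Igfals (97.8 CPM, group median 176), Nrg4 (4.36 CPM, group median 10.9) and Slc10a1 (517 CPM, group median 812).

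Ctrl mouse BG3 was high in Bdh1 (408 CPM, group median 299.9), Fabp1 (5614 CPM, group median 3074), Mup3 (4143 CPM, group median 2197) and Trib3 (14.8 CPM, group median 7.40). The same mouse was low in Afp (2.79 CPM, group median 4.08).

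ABpIF/+ mouse BG88 was high in Serpina1a (6032 CPM, group median 3793), Serpina1b (18435 CPM, group median 12668), Serpina1e (8591 CPM, group median 4881), Serpinf2 (2721 CPM, group median 2362) and Tff3 (961 CPM, group median 596).

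ABpIF/+ mouse BG175 was high in Lamb1 (3.45 CPM, group median 1.68), Ptgds (0.032 CPM, group median 0), Scd1 (3321 CPM, group median 2122) and Ugdh (44.9 CPM, group median 30.4).

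ABpIF/+ mouse BG55 was high in Etnppl (29.9 CPM, group median 9.38). The same mouse was low in Gldn (43.6 CPM, group median 75.0) and Ifit1 (4.79 CPM, group median 7.35).

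Ctrl mouse malpa459 was high in Cacna1b (0.0311 CPM, group median 0), Col1a1 (14.4 CPM, group median 8.67) and Csf1r (76.0 CPM, group median 56.4).

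Ctrl mouse malpa458 was high in Cxcl1 (4.36 CPM, group median 2.44), Egr1 (56.8 CPM, group median 8.25) and Fez1 (0.16 CPM, group median 0.0155).

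ABpIF/+ mouse BG30 was high in Trib3 (83.3 CPM, group median 36.6). Ctrl mouse malpa462 was low in Dusp5 (0.261 CPM, group median 0.559).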

How the results depend on the processing

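No paired analysis was possible because the columns of the count table carry no replicate numbers and the mice of the groups share none in the labels. With BG3 as the only Ctrl mouse, whose spread was taken from the other groups, 1159 genes were called (521 higher, 638 lower), 410 and 519 of them also called in the same direction with 6 Ctrl mice, and 178 members of the gene lists (50 higher, 128 lower) against 350 (123 higher, 227 lower). That fit ended the calls of 97 of 204 called genes that the rules name beside Trp53 and turned Esr1 to a log2 fold change of 0.0541 and Icmt to -0.0887. The smaller number of Ctrl mice is part of this setting, so these lost calls do not show the effect of strain. A log2 fold change threshold of 2 left 1095 genes (529 higher, 566 lower). Scaling by total counts gave 978 higher and 1812 lower, turned Icmt to -0.0868 and ended 10 calls of named genes, and the cause was not tested. Leaving out 1 mouse at a time gave 2525 to 2690 genes (1181 to 1268 higher, 1323 to 1485 lower) and 328 to 345 list members (113 to 120 higher, 215 to 231 lower), with Braf at 0.14 to 0.30, Icmt at 0.04 to 0.13 and Trp53 at 1.31 to 1.45 in log2 fold change. Beside the losses given above, several of these fits ended calls of other list members. Among them were Acot1 and Cyp4a10 of fatty acid oxidation, Rsad2 of the interferon response, Dlk1 of the oncofetal list and Itga6 of the integrins. Without BG3 and malpa387, an alternative chosen after seeing the data, 2608 genes were called and 17 named genes lost their call. Around Braf, 8 of 112 genes with a read were called within 5 Mb, or 7.14%, with 8 lower and 0 higher. Within 20 Mb 36 of 301 were called, or 12.0%, against 13.4% of all genes with a read. RLE factors, upper quartile factors, a filter on low counts, DESeq2, the edgeR 4 method and a fit of the 2 groups alone each kept the number of called genes within 1.5-fold, and they ended 0 to 3 calls of named genes. Scaling by total counts also moved the number of rises from 5 to 3 in the biliary, from 7 to 4 in the glycolysis, from 4 to 2 in the clock, from 8 to 5 in the stress response and from 5 to 3 in the hypoxia list, and the falls among endothelial markers from 2 to 5. No call turned direction in any of these fits among genes that both called. The 22 lists with a median beyond 0.5 in log2 fold change kept its sign under every fit tried. Scaling by total counts turned the majority of calls in 1 list. It also moved 25 of 52 list medians, markers included, by more than the SD between ABpIF/+ mice. With BG3 as the only Ctrl mouse, 25 medians moved by more than that SD, and the majority of calls turned in more than 1 list. At 3 counts per library, transcripts under 0.0933 to 0.123 CPM were not detectable.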
